A study of Mus musculus with 4 samples.

Results

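Regulatory T cells (Treg) were taken from the immune infiltrate of subcutaneous KPC pancreatic tumours as T cells with Foxp3 RNA. The cells were selected on their UMIs of Cd3, Foxp3 and Cd8: a cell was counted as Treg when it had at least 1 UMI (unique molecular identifier, 1 counted RNA molecule) of Cd3e, Cd3d or Cd3g, at least 1 UMI of Foxp3 and no UMI of Cd8a or Cd8b1. Of 23011 cells that passed a quality filter of 300 to 5000 genes and at most 6% mitochondrial UMIs, 618 met this rule, or 2.69%. The data came from 4 droplet libraries of live CD45-positive cells, 1 for each group of male C57BL/6 mice: untreated, STING agonist, LTβR agonist, and STING agonist with LTβR agonist (combination therapy). KPC cells are a mouse pancreatic tumour line, the STING agonist was ADU-S100 injected into the tumour, and the LTβR agonist was the antibody 4H8 given into the peritoneum. The tumours of a group were pooled before the library was made, so each group is 1 sample, no difference between treatments has a replicate check, and library and treatment cannot be told apart. In the order untreated, STING agonist, LTβR agonist and combination, which is the order of every set of 4 values here, the libraries held 134, 76, 261 and 147 Treg.

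Treg are CD4 T cells that hold other immune cells in check, and the transcription factor Foxp3 sets up and keeps their programme. They take up interleukin 2 through the high-affinity receptor chain CD25, restrain antigen-presenting cells through CTLA-4, and release or activate the inhibitory cytokines IL-10 and TGF-β. Treg in tissues and tumours often carry an effector programme, with receptors such as KLRG1 and ST2 and the growth factor amphiregulin, whereas Treg that recirculate through lymph nodes keep CCR7 and TCF-1.

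The Treg were of middling depth, with a median of 4812.5 UMIs per cell against 4654 in T cells with a Cd4 UMI and no UMI of Foxp3 or Cd8 (1320 cells, called Foxp3-negative CD4 cells). CD8 T cells, with a Cd8 UMI and none of Cd4 or Foxp3 (3618 cells), were deeper, with medians from 6164 to 7238 UMIs in the 4 libraries. The median Treg had 3 Foxp3 UMIs and the highest had 14. A single Foxp3 UMI carried 158 of the 618 cells, which were shallower (median 3590 UMIs). Those cells had an Ikzf2 UMI in 89.2%, an Il2ra UMI in 78.5% and an Itgae UMI in 36.1%, beside 94.3%, 92.6% and 47.8% of the 460 cells with more Foxp3 UMIs and 24.9%, 33.1% and 4.17% of the Foxp3-negative CD4 cells. Outside the rule, 109 cells with Foxp3 and Cd3 RNA were left out for a Cd8 UMI and had a median of 9551 UMIs, and 113 cells with a Foxp3 UMI but no Cd3 UMI had an Il2ra UMI in 51.3%. Cells with macrophage markers (no Cd3 UMI and at least 2 of C1qa, C1qb and Csf1r), which should lack Foxp3, had a Foxp3 UMI in 0.234% to 0.627% of cells at a median of 10038 UMIs. Doublets were kept, and RNA of other cells was present: 49, 17, 51 and 39 Treg (36.6%, 22.4%, 19.5% and 26.5%) had UMIs of 2 or more markers of another lineage, most often macrophage. These cells were deeper than the other Treg, with medians of 11862 to 14624 UMIs against 3591 to 4683.5. Summed over the 6 macrophage markers, Treg held 2695, 2506, 2073 and 1771 counts per 1000000 UMIs (CPM), so the untreated Treg carried the most. The 4 dendritic cell markers summed to 2155, 1913, 977 and 1535 CPM, again most in untreated Treg. Neutrophil markers summed to 19.6 to 328 CPM, plasma cell markers to 123 to 167 CPM, B cell markers to 1.96 to 123 CPM and tumour cell keratins and Epcam to 13.9 to 39.1 CPM, while red cell markers were at 0. Because leaving these cells out also leaves out deep cells, the part of depth and the part of foreign RNA cannot be told apart.

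Treg made up 1.98% of the filtered cells in the untreated library, 2.03% in the STING agonist library, 3.65% in that of the LTβR agonist and 2.76% in that of combination therapy. Exact binomial 95% intervals, which cover counting error alone, ran from 1.66% to 2.34%, 1.60% to 2.53%, 3.23% to 4.11% and 2.33% to 3.23%. The LTβR agonist share was therefore 1.85 times the untreated share, with an interval of 1.38 to 2.48 made by setting each bound against the opposite bound. The STING agonist ratio was 1.03 (0.685 to 1.53) and the combination ratio 1.40 (0.999 to 1.95), and both intervals include equality. The combination interval lay above equality when 2 Foxp3 UMIs (1.51, 1.03 to 2.20) or a Cd4 UMI (1.60, 1.05 to 2.44) were required. It also did without Treg holding markers of other lineages (1.62, 1.08 to 2.43). That exclusion took cells from the Treg count and not from the filtered cells. It removed 36.6% of the untreated and 26.5% of the combination Treg, which by itself raises the ratio. With no quality filter the interval included equality (1.34, 0.975 to 1.85).

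The denominator mattered for the size of that difference. Among cells with a Cd3 UMI, Treg were 5.97%, 5.42%, 10.5% and 6.62%, so the LTβR agonist library stood at 1.76 times untreated (1.33 to 2.35) and the combination library at 1.11 times (0.799 to 1.54). The combination share of T cells was 0.629 times the LTβR agonist share (0.477 to 0.828). Within the CD4 lineage, the sum of Treg and Foxp3-negative CD4 cells, Treg were 32.8%, 22.2%, 37.4% and 30%. By that measure the STING agonist library held 0.678 times the untreated share (0.477 to 0.957), and the LTβR agonist ratio was 1.14 (0.901 to 1.46). For every 100 CD8 T cells the untreated library held 12.8 Treg (10.6 to 15.3), the STING agonist library 12.9 (10.0 to 16.4), the LTβR agonist library 28.9 (25.1 to 33.2) and the combination library 13.6 (11.4 to 16.2). The LTβR agonist library alone was separated from the other 3 by its counting interval. These are shares of cells recovered, and more Treg cannot be told apart from fewer other cells. With all cells thinned to 1000 UMIs the shares were 0.681%, 1.01%, 1.67% and 1.2%, which kept the LTβR agonist library highest, at 2.46 times untreated (1.52 to 4.03), and put the combination library at 1.76 times (1.01 to 3.09), with 179, 92, 274 and 176 shallower cells left out.

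**Figure D1:**
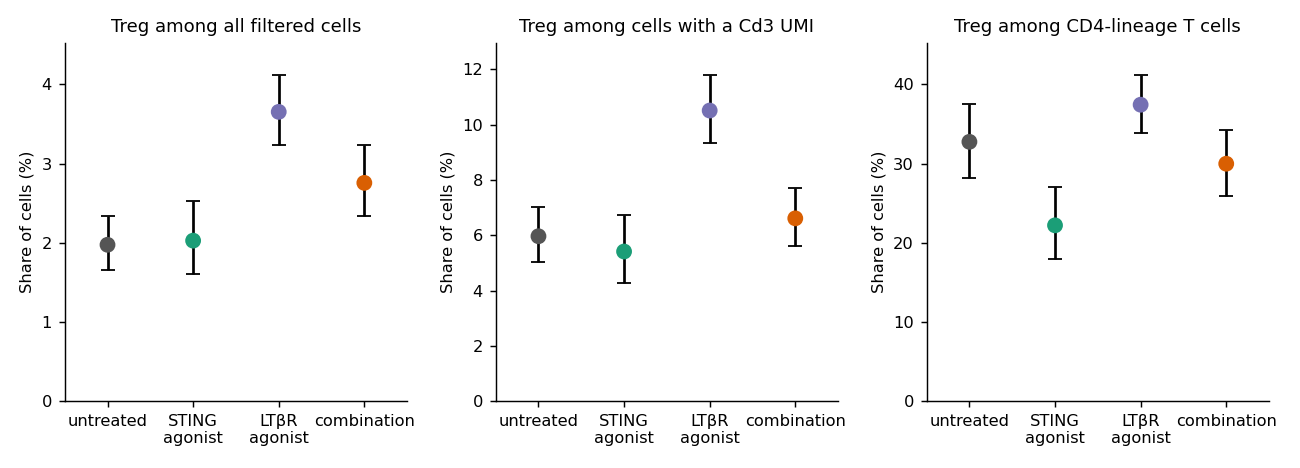
Share of Treg (percent, y axis) in each of the 4 libraries over 3 denominators: all filtered cells, cells with a Cd3 UMI, and the CD4 lineage. Points are 1 library each and bars are exact binomial 95% intervals for counting error; the LTβR agonist point is highest over each denominator, at 3.65%, 10.5% and 37.4%, but over the CD4 lineage its interval overlaps those of the untreated and combination libraries.

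Treg were next set against the Foxp3-negative CD4 cells of the same libraries, which asks what accompanies Foxp3 in tumour CD4 T cells. UMIs were summed per class and library and tested with edgeR's quasi-likelihood test, with the library as a block and the genes that define the classes left out. The 4 libraries served as replicates although each had another treatment, so the test finds differences shared by the 4. Of 9472 genes tested, 806 (8.51%) were higher and 745 (7.87%) lower in Treg at an adjusted p below 0.05, or 16.4% in either direction, and the median over all genes was 0.00 on the log2 scale. A Foxp3-negative CD4 cell can be a Treg whose Foxp3 RNA was not captured, and a Cd4 UMI was asked of that class but not of Treg, of which 60.4%, 73.7%, 57.1% and 69.4% had one.

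Genes of Treg identity were higher in Treg almost throughout: 11 of the 12 tested rose and 1 fell, with a median log2 difference of 1.78. Il2ra, which encodes CD25, stood at 1184, 1407, 1233 and 1383 CPM in Treg and at 141, 179, 258 and 249 CPM in Foxp3-negative CD4 cells. No library overlapped between the classes, and the edgeR log2 fold change was 2.64 ± 0.13 (SE, n = 4 libraries, adjusted p = 8.75e-07). Ikzf2, which encodes the transcription factor Helios, was at 1533, 1280, 1503 and 1403 CPM against 141, 110, 192 and 200 CPM (3.14 ± 0.13, adjusted p = 2.93e-07). Ikzf2 was thus as abundant as Il2ra in Treg, and neither overlapped with the other class. Izumo1r, encoding folate receptor 4, was lower in level but as separate, at 209, 268, 301 and 321 CPM against 54.2, 35.1, 44.0 and 42.9 CPM (2.60 ± 0.16, adjusted p = 3.05e-06). Itgb8, whose integrin activates latent TGF-β, was at 217, 239, 283 and 204 CPM against 11.9 to 28.8 CPM (log2 fold change 3.70). Lrrc32, encoding the TGF-β docking receptor GARP, rose by 3.48 on the log2 scale. Ctla4 was abundant in both classes, at 1510 to 2138 CPM in Treg and 494 to 817 CPM in Foxp3-negative CD4 cells (1.49 ± 0.08). Tnfrsf4, encoding OX40, differed by 1.51, Tnfrsf18, encoding GITR, by 1.01 and Entpd1, encoding the ectonucleotidase CD39, by 0.98. The member that fell was Nrp1, encoding neuropilin-1, which is used as a mark of thymus-derived Treg. It was at 65.1, 66.5, 64.8 and 37.7 CPM in Treg against 136, 152, 147 and 141 CPM (fell by 1.35 on the log2 scale, adjusted p = 0.000124).

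Of 21 tissue or effector Treg genes tested, 11 rose and 2 fell, with a median log2 difference of 0.73. Klrg1 (chr6:122270596-122282882, minus strand of GRCm38), a receptor for cadherins, was at 217, 248, 218 and 308 CPM in Treg against 12.6 to 22.6 CPM and had the smallest adjusted p of the table, 2.47e-07 (3.84 ± 0.14). Areg, encoding the tissue-repair growth factor amphiregulin, was as abundant as Ctla4 in Treg, at 1334, 1831, 1188 and 2066 CPM. In Foxp3-negative CD4 cells Areg was at 77.4, 161, 253 and 423 CPM, so the classes did not overlap (2.93 ± 0.27, adjusted p = 5.04e-05). Itgae, encoding the E-cadherin-binding integrin CD103, stood at 120, 147, 267 and 142 CPM against 8.42 to 19.9 CPM (3.64 ± 0.15). The TNF receptor family members Tnfrsf8 (CD30), Tnfrsf9 (4-1BB) and Tnfrsf1b (TNFR2) rose by 2.80, 1.86 and 1.17, and the regulators Maf and Prdm1 by 0.96 and 0.91. Il1rl1, encoding the IL-33 receptor ST2, was at 95, 123, 163 and 188 CPM in Treg and 48.2, 16.1, 73.2 and 207 CPM in Foxp3-negative CD4 cells. It was higher in 3 of 4 libraries and did not pass the test (0.90 ± 0.32, adjusted p = 0.0869). Bhlhe40 fell by 1.01 on the log2 scale, and Penk, encoding the opioid precursor proenkephalin, did not pass (-0.17, adjusted p = 0.699).

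Central or resting genes went the other way, with 1 of 14 rising, 7 falling and a median of -0.49. Tcf7, encoding TCF-1, was at 10.7, 33.3, 17.1 and 13.2 CPM in Treg against 157, 210, 110 and 190 CPM (fell by 3.23 on the log2 scale, adjusted p = 3.98e-06). Bcl2, an inhibitor of apoptosis, was at 36.3, 78.3, 36.7 and 50 CPM against 286 to 336 CPM (fell by 2.79). S1pr1, the receptor for exit from tissues, and the transcription factors Bach2 and Lef1 fell by 1.83, 1.67 and 1.54.

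Among 9 suppressive molecules, 4 rose and none fell in the edgeR test (median 0.54). Gzmb, encoding granzyme B, was at 1315, 1861, 1029 and 1425 CPM in Treg against 194, 110, 218 and 91.1 CPM in Foxp3-negative CD4 cells (3.19 ± 0.27, adjusted p = 2.95e-05). Il10 was lower in level, at 142, 86.1, 118 and 68.9 CPM against 11.9 to 32.7 CPM (2.19 ± 0.26, adjusted p = 0.00021). Lgals1, encoding galectin-1, rose by 0.54, whereas Tgfb1 stood at 403, 513, 464 and 421 CPM against 357 to 416 CPM and did not pass (adjusted p = 0.302). Of 8 checkpoint receptors 4 rose and 2 fell. Tigit rose by 1.01 beside Ctla4, and Pdcd1, encoding PD-1, fell by 1.45, from 128 to 286 CPM in Foxp3-negative CD4 cells to 69.4 to 84.9 CPM in Treg.

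Several cytokine and ligand genes fell in Treg. Ifng was at 11.7, 3.91, 11.6 and 17.9 CPM against 168, 209, 102 and 119 CPM (fell by 3.5 on the log2 scale, adjusted p = 9.46e-06). Il13 gave 0, 0, 0 and 2 UMIs in all Treg against 27, 24, 738 and 242 UMIs in Foxp3-negative CD4 cells, and Ccl1 gave 0, 0, 0 and 3 UMIs against 409, 81, 407 and 270. Il13 and Ccl1 were therefore at or under 3 UMIs in every Treg library. Few Foxp3-negative CD4 cells held them: 9, 11, 22 and 38 had an Il13 UMI and 17, 12, 23 and 25 a Ccl1 UMI. With the LTβR agonist a single cell held 74.8% of the Il13 UMIs. In the untreated library a single cell held 51.1% of the Ccl1 UMIs. Cd40lg, the ligand by which helper T cells license antigen-presenting cells, fell by 3.43. Tnfsf8, encoding the ligand of CD30, fell by 4.38 and Tnfsf11, encoding RANKL, by 3.73, the former from 232 to 330 CPM to 11.6 to 23.5 CPM. Of 16 genes for lymphotoxin, the TNF family and NF-κB, 3 rose and 6 fell. Lta, which encodes lymphotoxin-α, fell by 2.15, from 22.0 to 43.2 CPM to 4.27 to 15.7 CPM. Ltb, which encodes the lymphotoxin-β chain that engages LTβR, was at 428, 505, 707 and 685 CPM in Treg against 431, 603, 518 and 426 CPM and did not pass (0.19, adjusted p = 0.386).

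Homing receptors split evenly, with 3 of 13 rising and 3 falling. Ccr2 was at 619, 720, 611 and 566 CPM in Treg against 263, 141, 235 and 173 CPM (1.61), and Cxcr6, a receptor of resident T cells, fell by 1.89. Of 14 genes for cytokine receptors and STAT5 feedback, 1 rose and 3 fell, and of the 17 genes of helper programmes 14 were tested, with 2 higher and 5 lower. Among 22 interferon-stimulated genes, 7 rose and 2 fell (median 0.24), led by the GTPases Iigp1 (1.15) and Igtp (0.97) and by Isg20 (1.04). Of 15 T cell receptor response and immediate early genes 5 rose and 2 fell. Of 9 heat shock genes none rose and 3 fell, and of 14 cell cycle genes 2 rose and none fell.

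Genes outside the lists stood high as well. Rln3, encoding the peptide hormone relaxin-3, had the highest log2 fold change of the genes at 50 CPM or more that moved alike in every library, 4.60 ± 0.41 (adjusted p = 3.99e-05). It was at 63.0, 147, 128 and 74.5 CPM in Treg against 5.95, 0.702, 1.56 and 7.08 CPM, where the lowest is 1 UMI. Frmd5, Cep112 and Nckap5 followed at 3.35, 3.32 and 3.21, each with 89.8 CPM or more in every Treg library. Igfbp7 was the other end, at 7.47, 0, 4.28 and 8.49 CPM in Treg against 49.1 to 155 CPM.

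**Figure D2:**
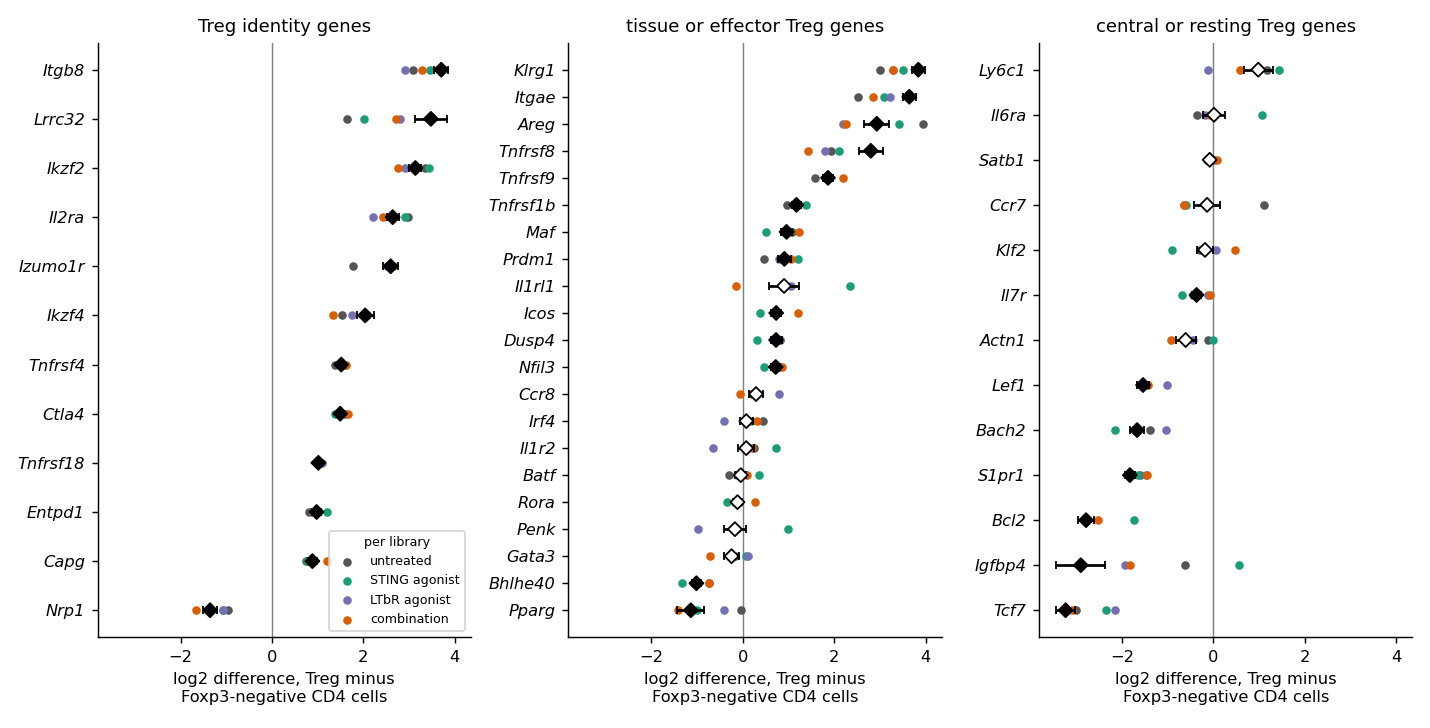
Log2 fold change of Treg over Foxp3-negative CD4 cells (x axis) for the genes of 3 lists, by edgeR over 4 libraries. Diamonds are the fitted value with its SE, filled where the adjusted p is below 0.05, and small coloured dots are the log2 ratio of CPM with a pseudocount in each library; identity genes lie to the right apart from Nrp1, and the 7 filled central genes lie to the left; 1 central gene that passed the test is not drawn.

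Against CD8 T cells the differences were larger and more numerous, and the depth of the cells differed too. Of 10829 genes tested, 2164 (20%) were higher and 1863 (17.2%) lower in Treg, or 37.2% in all. With every cell thinned to 2000 UMIs the counts were 1157 and 971. Identity genes rose in 10 of 12 and fell in 1, and effector genes rose in 18 of 20 and fell in 1. Il1rl1 separated Treg from CD8 T cells, at 95 to 188 CPM against 0.61 to 2.25 CPM (6.57 ± 0.26, adjusted p = 1.6e-08 by edgeR), although it did not pass against the other CD4 cells. Nckap5 (6.88), Rln3 (6.23), Frmd5 (6.04), Klrg1 (5.52), Itgb8 (4.88), Areg (4.83), Cpm (4.61), Il10 (4.27), Itgae and Il2ra (4.01 each) and Izumo1r (3.87) completed the highest genes. Il2ra in CD8 T cells was at 71.2, 90.1, 59.7 and 92.6 CPM.

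Cytotoxic genes of CD8 T cells were lower in Treg in part. Prf1, which encodes the pore-forming protein perforin, was at 48.0, 41.1, 22.0 and 27.4 CPM in Treg against 1085, 989, 540 and 724 CPM in CD8 T cells (fell by 4.66 on the log2 scale, adjusted p = 3.51e-10). Gzmb, its partner in killing, was near the CD8 level, at 1315, 1861, 1029 and 1425 CPM against 1952, 2223, 1052 and 1763 CPM. That difference of -0.36 passed the test (adjusted p = 0.00637), but it was -0.13 with cells thinned to 2000 UMIs (adjusted p = 0.365) and -0.093 without cells holding markers of other lineages (adjusted p = 0.511). Ifng fell by 4.74. Of 9 checkpoint receptors 5 rose and 4 fell (median 0.23), with Pdcd1, Lag3 and Havcr2 lower by 2.55, 2.14 and 1.11. The NK receptor gene Klre1 (-5.27) and Serpine2 (-6.98), Nrgn (-6.83), Gm156 (-7.60) and Gm44174 (-6.41) were lowest of the named genes, at 0 to 17.6 CPM in Treg.

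Of the other lists, interferon-stimulated genes rose in 17 of 22 with none falling. T cell receptor response and immediate early genes rose in 12 of 15 with 3 falling. Lymphotoxin, TNF family and NF-κB genes rose in 10 of 16 with 1 falling. Ltb was among the last, at 428 to 707 CPM against 288 to 437 CPM (0.60 ± 0.12, adjusted p = 0.00221). Homing receptors rose in 8 of 13 and fell in 2, and genes for cytokine receptors and STAT5 feedback rose in 9 of 14 and fell in 2. Suppressive molecules rose in 4 of 9 and fell in 3, and central or resting genes rose in 6 of 14 and fell in 5. Helper programme genes rose in 4 of 10 and fell in 4. Heat shock genes fell in 5 of 9 and cell cycle genes in 9 of 14, with none rising. Without the Treg and CD8 T cells that held markers of other lineages, 14 interferon-stimulated genes rose and 1 fell. Of the T cell receptor response and immediate early genes, 9 then rose and 3 fell. Cell cycle genes then fell in 5 of 14.

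Treg were uneven among themselves in Klrg1. A Klrg1 UMI was present in 71 of 134, 38 of 76, 116 of 261 and 82 of 147 Treg, or 53.0%, 50%, 44.4% and 55.8%. Klrg1-positive cells were deeper (median 5454 against 4180 UMIs), and the comparison was therefore repeated with cells thinned to the same depth. The classes were set before thinning, so the repeat does not remove the part of depth in which cells had a Klrg1 UMI. Between the 307 Klrg1-positive and 311 Klrg1-negative Treg, summed per library, 8 of 6284 genes (0.127%) were higher and 1 (0.0159%) lower by edgeR, 0.143% in all. DESeq2 called 10 higher and none lower, and at an unadjusted p below 0.05 edgeR gave 561 genes and DESeq2 144. With cells thinned to 2000 UMIs edgeR called 12 higher and 6 lower.

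Penk (chr4:4133531-4138819, minus strand) led this split. In Klrg1-positive Treg it was at 441, 548, 541 and 497 CPM and in Klrg1-negative Treg at 94.1, 104, 170 and 160 CPM (1.96 ± 0.16, adjusted p = 0.000311), so the 4 pairs did not overlap. The level came from few cells: 10, 8, 26 and 27 Klrg1-positive and 3, 3, 20 and 8 Klrg1-negative Treg had a Penk UMI. In Klrg1-positive Treg 1 cell held 37.9%, 40.5%, 21.4% and 24.0% of the Penk UMIs. In Klrg1-negative Treg 1 cell held 83.8%, 72%, 15.8% and 45.9% of them. Rln3 was at 75.4, 204, 204 and 95.8 CPM against 45.8, 82.9, 51.3 and 36.7 CPM (1.51, adjusted p = 0.0281). The chemokine genes Ccl3 (1.58, adjusted p = 0.0166) and Ccl4 (1.62, adjusted p = 0.0351), Lgals1 (0.64), the prohormone convertase gene Pcsk1 (1.48) and the glutaredoxin gene Glrx (0.76) rose as well, and Ccl7, which averaged under 50 CPM, was the last of the 8. Ccl7 UMIs came from 1, 2, 6 and 1 Klrg1-positive Treg, with 58.3% to 100% of them in 1 cell of each library. A Ccl3 UMI was in 15, 5, 22 and 8 Klrg1-positive and 5, 5, 17 and 2 Klrg1-negative Treg. In Klrg1-positive Treg 1 cell held 29.3% to 66.7% of the Ccl3 UMIs of a library and 31.6% to 54.4% of those of Ccl4. An Rln3 UMI was in 21, 11, 29 and 15 Klrg1-positive and 8, 6, 17 and 11 Klrg1-negative Treg. Il18r1, a chain of the IL-18 receptor, was the gene that fell, at 79.1, 133, 122 and 112 CPM against 191, 240, 249 and 197 CPM (-0.95, adjusted p = 0.0281). With thinned cells Il18r1 did not pass (-0.73, adjusted p = 0.199), nor did Pcsk1 (1.40, adjusted p = 0.0536), whereas Penk, Rln3, Ccl3, Ccl4, Lgals1 and Glrx did and Ccl7 was too low to be tested.

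The chemokine genes of this split are also made by macrophages, so the split was repeated without Treg holding RNA of other cells. Antigen-presenting cell RNA, as defined with Cst3 further on, was found in 22.5%, 10.5%, 9.48% and 12.2% of Klrg1-positive and 15.9%, 15.8%, 8.28% and 10.8% of Klrg1-negative Treg. Without those cells Ccl4 (2.06, adjusted p = 0.175), Pcsk1 (adjusted p = 0.102) and Glrx (adjusted p = 0.0748) did not pass by edgeR, and Ccl3 did (2.08, adjusted p = 0.0285). Without Treg holding markers of other lineages Pcsk1 did not pass (adjusted p = 0.0557), Penk was at 1.1 (adjusted p = 0.0427), Ccl3 at 2.50 and Ccl4 at 2.31. Of the 9 genes Penk alone passed without each library in turn. The other 8 lost their calls without the combination library (adjusted p from 0.123 to 0.205), 7 without the LTβR agonist library (0.0642 to 0.397), where Ccl7 was too low to be tested, and all but Rln3 without the untreated library (0.0779 to 0.286). Without the STING agonist library Pcsk1 was lost (0.0550), while 16 genes rose and 5 fell. Itgae did not follow Klrg1, with 138, 174, 234 and 124 CPM against 94.1, 116, 299 and 173 CPM (0.01, adjusted p = 1). Areg was higher in 3 of 4 libraries without passing (0.54, adjusted p = 0.556), and Il10 was higher in 4 of 4 without passing (1.31, adjusted p = 0.0887), though it passed without Treg holding markers of other lineages (1.01, adjusted p = 0.0449).

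**Figure D3:**
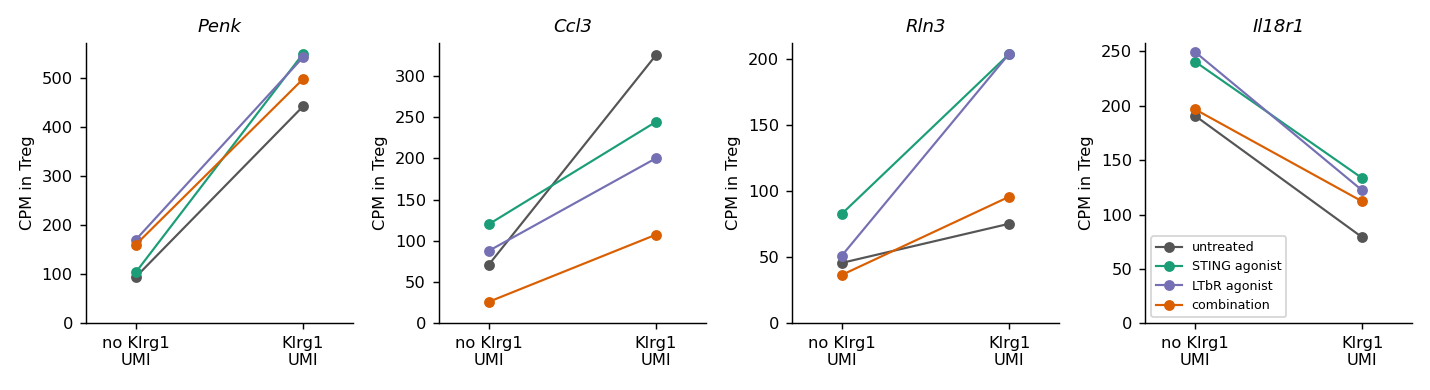
CPM of 4 genes in Treg without (left) and with (right) a UMI of Klrg1, 1 line per library. All 4 lines of Penk, Ccl3 and Rln3 rise with Klrg1, and those of Il18r1 fall. The Ccl3 lines rest on 5 to 22 Klrg1-positive Treg with a UMI per library, of which 1 cell held 29.3% to 66.7% of the UMIs.

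Cycling Treg, taken as cells with UMIs of at least 3 of 14 cell cycle genes, were 16.4% (10.6% to 23.8%), 25%, 24.1% and 24.5%. After thinning to 2000 UMIs they were 5.6%, 7.04%, 7.92% and 9.86%, and the intervals of the libraries overlapped. Foxp3-negative CD4 cells gave 14.5%, 19.5%, 22.9% and 25.1%, and thinned 1.54%, 2.02%, 5.17% and 8.41%.

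T cell receptor gene segments were read for 48, 36, 94 and 70 Treg with UMIs of both a Trbv and a Trav segment. One pair, Trbv3 with Trav13-1, was found in 12 of the 48 untreated Treg (25%), whereas the most frequent pair of the other libraries held 5.56%, 3.19% and 4.29%. Trbv3 alone was in 19 of 89 untreated Treg with a Trbv segment, 21.3% (13.4% to 31.3%), and in 9.26%, 11.9% and 7.76% of the others. Trav13-1 was in 25.8% of untreated Treg with a Trav segment and in 2.17%, 3.05% and 2.38% of the others, beside 6.72% of untreated Foxp3-negative CD4 cells. Segment RNA is not a full receptor sequence, and how many animals gave these cells was not read from the data.

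Between treatments the comparison is of 4 libraries without replicates. Ratios are log2 of CPM plus a pseudocount of 10 over untreated Treg, with 95% intervals for counting error in parentheses and no p-value. Of 5867 genes with at least 100 UMIs over the 4 Treg sums, 480 (8.18%) were at least 0.5 higher and 559 (9.53%) at least 0.5 lower with the STING agonist. The LTβR agonist library gave 217 (3.7%) and 391 (6.66%), and the combination library 278 (4.74%) and 567 (9.66%). The STING agonist library was the smallest, with 511127 UMIs against 937021, 1636864 and 1059701, so its ratios carry the widest counting error. Few identity genes moved by that much: the STING agonist library had 1 of 12 higher, the LTβR agonist library 2, and the combination library 2 higher and 2 lower. Foxp3, which the rule used and which lies at chrX:7573644-7595245 (GRCm38, GENCODE vM21 annotation, plus strand), was at 503, 577, 541 and 576 CPM.

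**Figure D4:**
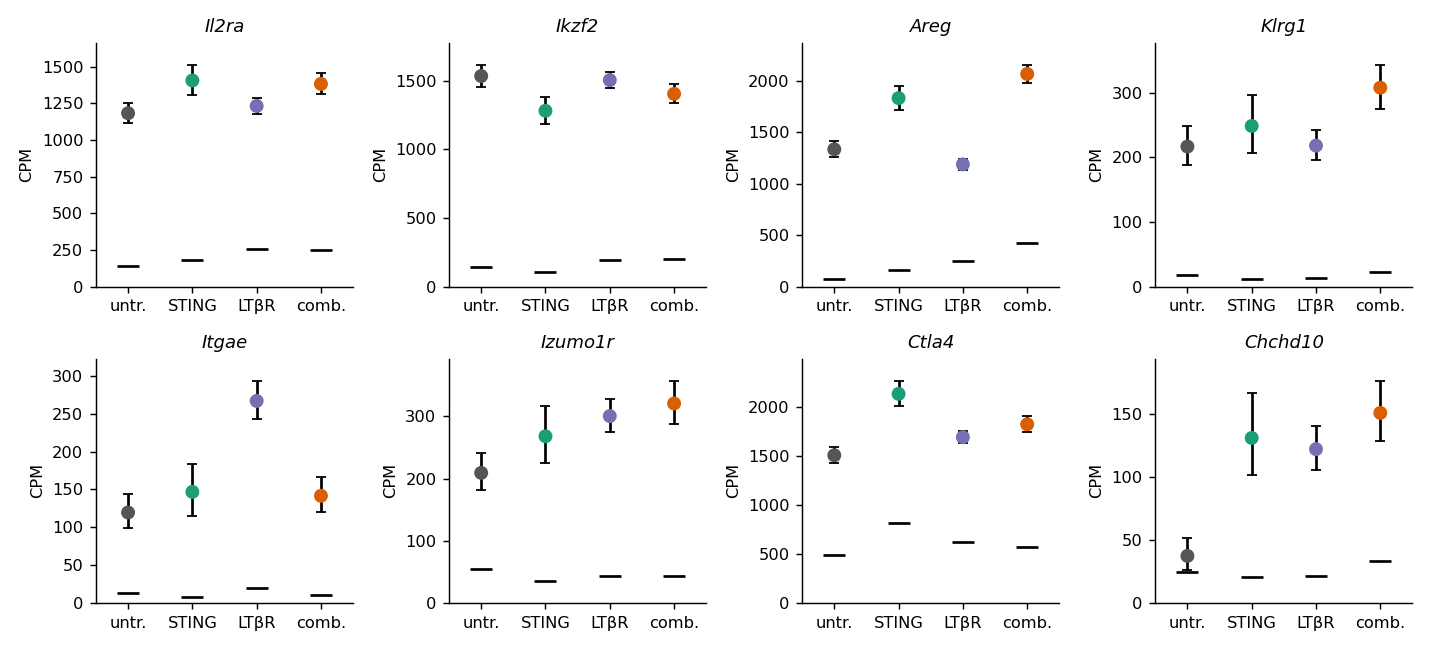
CPM of 8 genes in Treg (coloured points, 1 per library, bars exact Poisson 95% intervals for counting error) and in Foxp3-negative CD4 cells (black dashes). Chchd10 is lowest in untreated Treg at 37.4 CPM, Itgae is highest with the LTβR agonist at 267 CPM, and the Foxp3-negative CD4 levels of Klrg1, Itgae and Areg lie under every Treg point.

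Chchd10, which encodes a mitochondrial protein and lies at chr10:75933130-75937747 on the plus strand, had the highest ratio of the genes named by the fixed rule for each agonist and for their combination. It was at 37.4 CPM in untreated Treg and at 131, 122 and 151 CPM in the treated ones, so that the log2 ratios were 1.58 (1.06 to 2.09), 1.48 (1.05 to 1.92) and 1.77 (1.32 to 2.21). The 3 ratios share the untreated library. A Chchd10 UMI was found in 16.4%, 35.5%, 36.4% and 38.8% of Treg, and with cells thinned to 2000 UMIs in 4.80%, 22.5%, 19.2% and 19.7%. In cells with macrophage markers, thinned alike, it was in 3.39%, 3.64%, 3.07% and 5.73%, so the untreated Treg stood near that background. Foxp3-negative CD4 cells had 24.4, 20.3, 21.4 and 33.6 CPM. Without Treg that held markers of other lineages the levels were 57.9, 161, 152 and 196 CPM and the ratios 1.34, 1.25 and 1.60. Bmyc, a relative of the proto-oncogene Myc, was likewise lowest in untreated Treg, at 64.0, 115, 151 and 148 CPM, with ratios of 0.76 (0.28 to 1.24), 1.12 (0.76 to 1.49) and 1.1 (0.71 to 1.49).

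With the STING agonist, T cell receptor response and immediate early genes, taken as a single list, and heat shock genes were higher in Treg. Of 14 measured T cell receptor response and immediate early genes, 8 were at least 0.5 higher and none as much lower. Their median was 0.55 beside 0.00789 over all genes. Cd69, an early activation antigen, was at 207, 458, 211 and 287 CPM, and its STING agonist ratio was 1.11 (0.84 to 1.38). Nfkbid, encoding the nuclear NF-κB regulator IκBNS, was at 140, 315, 172 and 190 CPM (1.12, 0.79 to 1.44). Of 9 heat shock genes 7 were higher and none lower, with a median of 0.72. The chaperone Hspa8 was at 851, 1548, 1054 and 1141 CPM (0.86, 0.71 to 1.00). The medians of Foxp3-negative CD4 cells for both lists were alike, 0.52 and 0.81. Without Treg holding markers of other lineages 12 of 14 and 8 of 9 genes were higher, with medians of 0.86 and 0.92. Egr1 and Nr4a2 were the exceptions, with 0.60 and 0.56 over all Treg and -0.026 and -0.10 without those cells. With combination therapy 1 of the 14 T cell receptor response and immediate early genes was higher (median 0.31). Without Treg holding markers of other lineages 9 were higher (median 0.59). Heat shock genes were higher in 4 of 9 with combination therapy (median 0.45) and in 3 of 9, with 1 lower, with the LTβR agonist (median 0.37). Without those cells 2 were higher and 1 lower with combination therapy (median 0.36), and 1 higher and 1 lower with the LTβR agonist (median 0.28). The difference of these lists between treatments was not tested.

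Socs1, a feedback inhibitor of cytokine signalling, was higher with the STING agonist and with combination therapy, at 132, 258, 158 and 275 CPM (0.91, 0.57 to 1.26, and 1.00, 0.71 to 1.29). The STING agonist ratios of Ctla4, Tnfrsf4 and Gzmb were 0.50, 0.57 and 0.50, and without Treg holding markers of other lineages 0.69, 0.77 and 0.059, so that Gzmb was then level with untreated Treg. Without Treg holding RNA of antigen-presenting cells instead, the ratios were 0.70, 0.70 and 0.51. The 10 genes that stood highest with the STING agonist also held Pja1, Imp3, Srsf2, Cdk4, Gm7030, Tuba4a and Mrpl9 (1.26 to 1.01) beside Chchd10, Nfkbid and Cd69. Cst3, encoding cystatin C, was the lowest at -2.31, and it is a gene of antigen-presenting cells. In 26, 10, 23 and 17 Treg, at least 1% of UMIs came from Cst3, H2-Aa, H2-Ab1, H2-Eb1 and Cd74, or at least 3 UMIs from Fscn1, Ccl22 and Cacnb3, a bound chosen after the values were seen. Those cells, in whose choice Cst3 took part, held 91.1% of its UMIs in untreated Treg, and without them its levels were 446, 224, 368 and 382 CPM. Ktn1, Tmem131l, Arfgef2, Spred2, Pgm2l1, Tnks, Klf12, Colgalt1 and Togaram1 followed, from -1.54 to -1.24. Of these, Colgalt1 was at -0.28 without Treg holding markers of other lineages.

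With the LTβR agonist, Itgae was higher in Treg, at 267 CPM against 120 CPM untreated, a log2 ratio of 1.1 (0.81 to 1.38). An Itgae UMI was in 35.8%, 35.5%, 57.1% and 36.1% of Treg, or 22.4%, 23.9%, 40.8% and 21.8% of cells thinned to 2000 UMIs (9, 5, 21 and 5 shallower Treg left out). Cells with macrophage markers, thinned alike, had one in 0.390% to 0.812%, and combination therapy did not share the high level. Without Treg holding markers of other lineages the ratio was 0.91. Fdps, an enzyme of the mevalonate pathway, was at 22.4, 50.9, 61.1 and 38.7 CPM (1.13, 0.62 to 1.64), and Elovl6, a fatty acid elongase, at 30.9, 41.1, 89.2 and 46.2 CPM (1.28, 0.81 to 1.74). Mcm3, F13a1, Ramp1 and Laptm4b were the other genes of the highest 10 apart from Il31ra, Chchd10 and Bmyc, at 1.14 to 1.04. Il31ra, at 1669, 1191, 3870 and 2249 CPM, was also at 1480 to 2551 CPM in Foxp3-negative CD4 cells and 2092 to 2880 CPM in cells with macrophage markers, so it did not mark Treg.

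The gene of lymphotoxin-β itself, Ltb, was at 428, 505, 707 and 685 CPM, a ratio of 0.71 (0.55 to 0.87) with the LTβR agonist and 0.67 (0.49 to 0.84) with combination therapy. Without Treg holding markers of other lineages these were 0.56 and 0.54. Cxcr6 was lower, at 114, 160, 48.9 and 66.1 CPM (-1.08, -1.45 to -0.70, with the LTβR agonist). Il1rl1 was at 95, 123, 163 and 188 CPM (0.72, 0.40 to 1.04), and 0.45 without those cells. Of the 10 lowest genes, the complement genes C1qb and C1qc, Cd63, Ciita and Marcks are expressed by macrophages and dendritic cells, Klrk1 was at 101, 72.4, 17.1 and 10.4 CPM, and Cxcl16 was at 286, 186, 78.8 and 109 CPM. Leaving out the Treg with RNA of antigen-presenting cells took Klrk1 from -2.04 to -0.45 and Cxcl16 from -1.74 to -0.33. Ramp3, Pkib and Etv3 went from -1.97, -1.67 and -1.63 to -0.39, -0.14 and -0.84. Cd63, Ciita and Marcks went from -1.51, -1.56 and -1.45 to -0.71, -0.90 and -0.67. C1qb and C1qc went further down, from -1.33 and -1.41 to -3.32 and -2.65. Ccr7 changed most, from 412, 48.9, 45.2 and 69.8 CPM over all Treg to 15.4, 2.90, 32.6 and 35.3 CPM without those cells. Leaving out Treg with markers of other lineages instead kept Ccr7 lower, with ratios of -4.33, -2.83 and -2.62 for the STING agonist, the LTβR agonist and combination. By that exclusion Klrk1, Cxcl16, Ramp3, Pkib and Etv3 were at -1.43, -2.53, -1.04, -1.92 and -0.65 with the LTβR agonist.

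With combination therapy, interferon-stimulated genes were lower over all Treg but not over Treg free of other lineage markers. Of 22 measured genes 10 were at least 0.5 lower and none as much higher, with a median of -0.479. Ifit3 was at 74.7, 76.3, 58.0 and 10.4 CPM (-2.06, -2.58 to -1.48), Rsad2 at 126, 158, 78.8 and 28.3 CPM (-1.83) and Isg15 at 674, 734, 590 and 284 CPM (-1.22, -1.42 to -1.02). These UMIs sat in few cells: 8 of the untreated Treg held 50% of the Isg15 UMIs, 3 held 50% of those of Ifit3 and 2 of those of Rsad2. The 49 untreated Treg with markers of other lineages held 84.8% of the Isg15 UMIs, 91.4% of the Ifit3 UMIs and 89.8% of the Rsad2 UMIs. Without such cells Isg15 was at 253, 390, 307 and 271 CPM, a combination ratio of 0.10, and Rsad2 at 31.6, 60, 40.2 and 36.4 CPM, a ratio of 0.16. Ifit3 was then at 15.8, 71.3, 43.3 and 13.9 CPM (-0.11), 2 of the 22 genes were higher, 1 was lower and the median was 0.0766. Leaving out the cells with RNA of antigen-presenting cells alone kept 8 genes lower and none higher (median -0.330). Foxp3-negative CD4 cells had a median of -1.04 over the same list, with Isg15 at 575, 330, 487 and 201 CPM.

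The STING agonist on its own gave 3 of these 22 genes higher and none lower (median 0.11), and 10 higher without the Treg that held other lineage markers (median 0.383). Leaving out the cells with RNA of antigen-presenting cells instead gave 3 higher and 1 lower (median 0.030). Few STING agonist Treg held these UMIs: 50% of those of Isg15, Ifit3, Ifit1 and Rsad2 sat in 4, 3, 2 and 1 cells. Ifi47 and Igtp, GTPases of the interferon response, were at 177, 303, 209 and 157 CPM and at 220, 360, 251 and 277 CPM, with STING agonist ratios of 0.74 (0.43 to 1.05) and 0.69 (0.40 to 0.97). The LTβR agonist gave 1 higher and 4 lower (median -0.19), and 5 higher and 3 lower without Treg holding other lineage markers. Without Treg holding RNA of antigen-presenting cells it gave 1 higher and 2 lower (median -0.0078).

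Other genes were high with combination therapy. Areg was at 2066 CPM against 1334 untreated (0.63, 0.53 to 0.73), Klf2, a transcription factor of recirculating T cells, at 162, 256, 216 and 318 CPM (0.93, 0.66 to 1.2), and Lgals1 at 1966 against 1295 CPM (0.60). Tnfrsf4 (0.60) and Izumo1r (0.59) were also higher. Without Treg holding other lineage markers Areg was at 1.03, Klf2 at 0.98, Lgals1 at 0.48, Tnfrsf4 at 0.42 and Izumo1r at 0.51. In the same order the STING agonist ratios were then 0.94, 0.89, 0.33, 0.77 and 0.45, and the LTβR agonist ratios 0.16, 0.36, 0.096, 0.14 and 0.50. Areg and Klf2 were thus high with the STING agonist alone too, and Tnfrsf4 was higher there than with combination therapy. Il10 was lowest with combination therapy, at 142, 86.1, 118 and 68.9 CPM (-0.95, -1.33 to -0.57), and stayed so without Treg holding other lineage markers (-1.02). Its UMIs sat in few cells: 33 of 134 untreated and 30 of 147 combination Treg had one. In each of those libraries 6 cells held 50% of the Il10 UMIs, a spread between cells that the counting interval does not cover. The tetraspanin gene Cd81 was at 51.2, 80.2, 90.4 and 114 CPM (1.02), and the spliceosome gene Txnl4a at 21.3, 31.3, 44.6 and 59.5 CPM (1.15). Hsph1, a chaperone, was at 12.8, 58.7, 28.1 and 45.3 CPM (1.28), and Serpinb6a, Lxn, Ier5l and Hmgn2 completed the highest 10 at 1.08 to 0.99. Of 7 measured cell cycle genes 5 were higher (median 0.76), but without Treg holding other lineage markers none of the 7 was (median 0.11). The lowest 10 genes were Klrk1 (-2.45), Cst3 (-2.24), Ccl5 (-2.22), Ifitm2, Marcks, Ifi204, C3, Ms4a4c, Gcnt2 and Tmem163 (-1.50). Of these, Cst3 and Marcks were named above as genes of antigen-presenting cells. Without Treg holding RNA of antigen-presenting cells Klrk1 was at -0.65, Cst3 at -0.22 and Ccl5 at -1.1. Ifitm2, Marcks, C3 and Gcnt2 were then at -1.18, -1.18, -1.10 and -0.70. Ifi204, Ms4a4c and Tmem163 were further down than over all Treg, at -1.96, -1.62 and -1.80. Without Treg holding markers of other lineages instead, Klrk1, Cst3 and Ccl5 were at -2.38, -1.70 and -1.17.

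**Figure D5:**
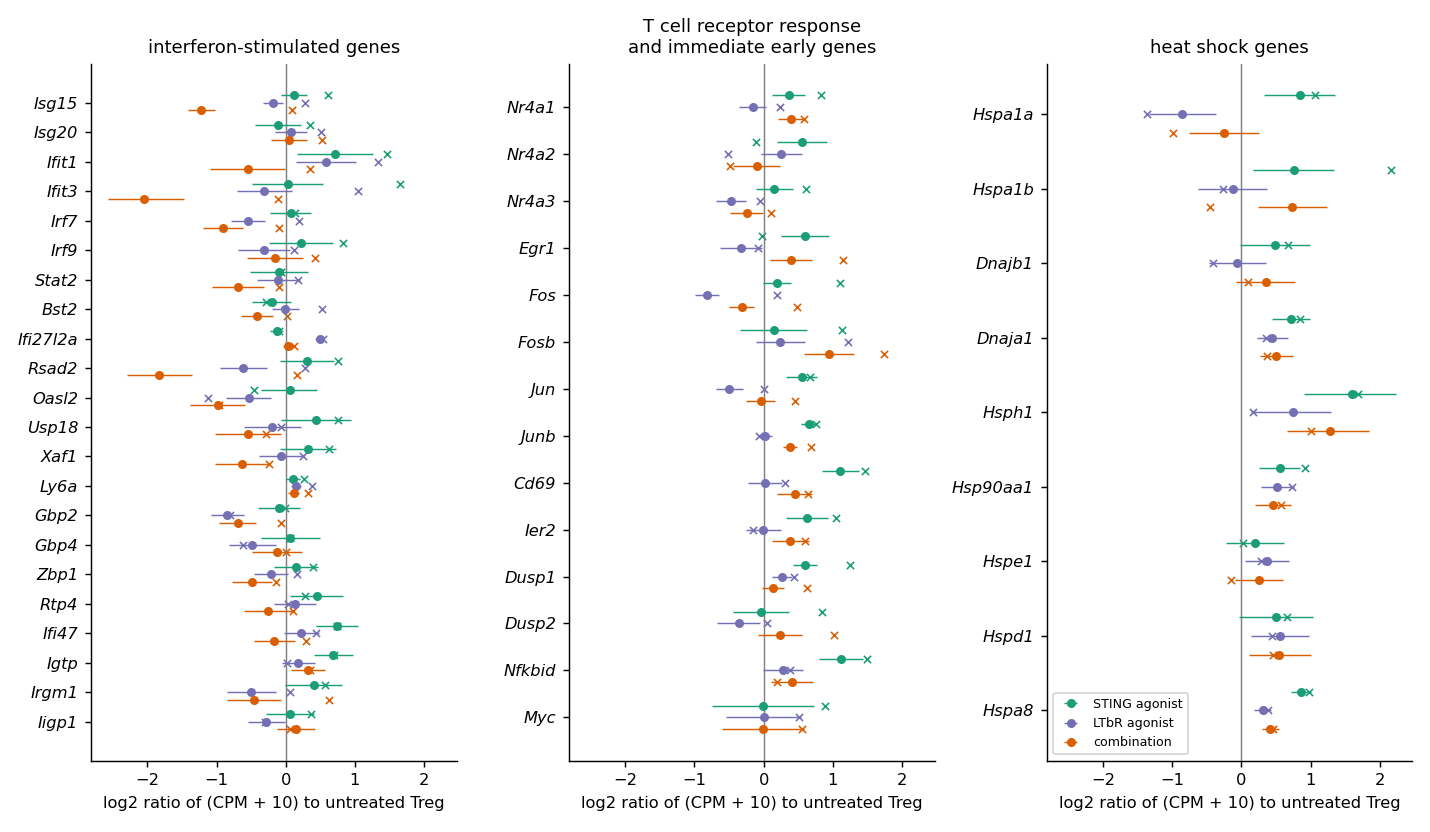
Log2 ratio of CPM plus 10 to untreated Treg (x axis) for 3 lists of genes, by treatment. Points carry 95% intervals for counting error, and crosses are the same ratios without Treg that hold markers of other lineages: the crosses of Isg15, Ifit3 and Rsad2 for combination therapy lie near 0, whereas heat shock genes stay to the right with the STING agonist.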

How the data were processed

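Live CD45-positive cells of KPC tumours were sequenced in 4 droplet libraries, 1 per group. The authors deposited UMI counts per gene and cell barcode for 32285 features, made with Cell Ranger 7.1.0 on mm10 per the submitters' processing notes, as 1 matrix in which the number after each barcode gives the library. The deposited counts were used without further normalization. The doublet treatment before deposit is not given in the sources used here, and no caller was run.

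Cells with 300 to 5000 genes and at most 6% mitochondrial UMIs were kept (92.6% of barcodes), and classes were set by the UMI rules given with the results. Filtered cells numbered 6783 (untreated), 3748 (STING agonist), 7147 (LTβR agonist) and 5333 (combination). Of 24839 barcodes, 568 had a sequence that also occurred in another library, 12 of them among Treg. UMIs were summed per class and library, and pairs of classes were tested with edgeR 4.0.16 (R 4.3.3, quasi-likelihood test, TMM scaling, filterByExpr, Benjamini-Hochberg over all genes tested, n = 4 libraries) with the library as a block. Both classes of a pair come from the same library, so the pairing is given by the design. Genes that define a class were left out. DESeq2 1.42.0 was an alternative, and the edgeR fit was tested on simulated counts. Treatments were compared as log2 ratios of CPM plus 10 with intervals from exact Poisson bounds (Python 3.11.15, scipy 1.17.1), and shares with exact Clopper-Pearson intervals. Intervals cover counting error only.

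Genes are named by a fixed rule: the genes of the gate and the Treg markers; genes of 13 lists on which a count turns; the 12 highest and 8 lowest fold changes per test that passed, had 1 sign in 4 libraries and averaged 50 CPM or more; and the 10 highest and 10 lowest ratios per treatment over genes with at least 100 UMIs of which no cell held over 25%, without receptor segments. Il13, Ccl1, Ccl7 and the receptor segments were added after their values were seen. The members, lists and tests were chosen with earlier results of these data known. Some genes, and 1 planned split of Treg with its alternatives, are not reported here. Single-cell sequencing was done more than once in the study, and the run that gave these libraries is not given in the sources used here.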

Additional observations from a re-analysis of the deposited data

How the results depend on the processing

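Over 24 alternatives to the share ratios, 3 moved outside the counting interval, all with the CD4 lineage as denominator: 0.678 for the STING agonist, 1.14 for the LTβR agonist and 0.916 for combination therapy. Against Foxp3-negative CD4 cells DESeq2 called 526 genes higher and 443 lower, and leaving out 1 library gave 558 to 682 higher and 516 to 676 lower. Against CD8 T cells thinning to 2000 UMIs gave 1157 and 971, and leaving out 1 library 1807 to 2088 and 1404 to 1681. The Klrg1 split gave 1 to 16 higher and 0 to 5 lower without 1 library, 82 and 57 with no filter on low counts, and 25 and 38 without cells holding markers of other lineages. Genes lower there numbered 0 by DESeq2, 6 with thinning and 4 without cells holding RNA of antigen-presenting cells.

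Without the library as a block, the counts higher and lower were 564 and 575 against Foxp3-negative CD4 cells, 2055 and 1829 against CD8 T cells, and 1 and 0 for Klrg1.

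For the treatments, given as higher and lower in the order STING agonist, LTβR agonist and combination, a pseudocount of 50 CPM left 115 and 171, 58 and 132, and 73 and 213. A pseudocount of 1 CPM gave 346 higher with the LTβR agonist and 436 with combination therapy. A minimum of 500 UMIs left 87 and 84, 42 and 78, and 67 and 119, and no filter gave 1261 and 1395, 604 and 913, and 792 and 1141. The mean over cells gave 337 and 641 with the LTβR agonist and 904 lower with combination therapy. Leaving out Treg with markers of other lineages gave 809 and 1022, 477 and 739, and 573 and 906. Leaving out Treg with RNA of antigen-presenting cells, an alternative chosen after seeing the data, gave 869 lower with the STING agonist. Beyond what the construction of an alternative explains, such as fewer genes or cells, the cause was not tested.

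Directions turned for these genes. Penk against Foxp3-negative CD4 cells was -0.51 to 0.15 without 1 library, above 0 without that of the LTβR agonist. Itgae in the Klrg1 split was -0.059 without the block, -0.34 with thinning, -0.26 without cells holding markers of other lineages, -0.030 without cells holding RNA of antigen-presenting cells, and -0.14 to 0.19 without 1 library. Without Treg holding markers of other lineages, Egr1 was -0.026 and Nr4a2 -0.10 with the STING agonist, and Rsad2, Isg15 and Ms4a4c were 0.16, 0.10 and 0.52 with combination therapy. Without Treg holding RNA of antigen-presenting cells, Egr1 was -0.20 with the STING agonist, and Ccr7 was 0.75 with the LTβR agonist and 0.84 with combination therapy. The STING agonist library, with 76 Treg, limits what its ratios can show, and genes under 100 UMIs over the 4 sums were not compared between treatments.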
